A study of Mus musculus with 10 samples.

Results

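Gene counts were examined for 35 genes that mark the forebrain, the diencephalon or the hindbrain, the brain regions on either side of the midbrain, in RNA-seq libraries of dissected mouse midbrain. The genes were a fixed list of symbols, matched to Entrez gene IDs, and all 35 were among the 30935 IDs of the count table. The midbrains came from mouse embryos at embryonic day 14.5 that were either wild-type (Rbfox1 +/+) or lacked HAR.321 on both copies of the locus (Rbfox1 ΔHAR.321/ΔHAR.321). HARs, human accelerated regions, are conserved sequences that changed fast on the human lineage, and the RNA-binding protein made from Rbfox1 regulates splicing in neurons. There were 5 libraries per genotype, numbered wild-type 1, 2, 4, 5 and 6 and deletion 2, 3, 4, 5 and 6, and the submitters call the samples independent. The sources used here do not give strain, sex, litter, dissection day or where the midbrain was cut, so p-values measure the spread between these samples. No other allele and no treatment is named for either group.

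The vertebrate neural tube is divided along its length by transcription factors that are each switched on in a stretch of it. The Emx genes and Tbr1 mark the telencephalon, Dlx genes its ventral part and the prethalamus, Six6 and Rax the eye field and hypothalamus, Tcf7l2 the thalamus and pretectum, and Hox genes and Egr2 the hindbrain segments behind the cerebellum. Some of these genes are also switched on in midbrain cells, Tcf7l2 and the Irx genes among them, so their RNA need not come from a neighbouring region. In bulk tissue, fewer cells of a type and less RNA per cell cannot be told apart.

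The libraries held 16246892 to 20255728 counts. Of 22 midbrain identity genes, listed to describe the tissue, all 22 were tested. Their summed level was 2274 to 2571 CPM (counts scaled to the size of the library) in the wild-type and 1991 to 2699 CPM in deletion libraries. With no other tissue to compare, these levels cannot check the label of the tissue. Wild-type 5, deletion 2 and deletion 3 were the 3 highest libraries for 189 of 15288 tested genes (1.24%), a share given as a description only, among them the members Tbr1 and Olig3 and 5 of 10 tested genes on a list of other hindbrain and spinal genes (Tlx3, Lmx1a, Pax2, Skor2 and Fgf3). These libraries were picked out after their values were seen, and they come from both groups. Fold changes are given with and without them for the 9 members with full statistics and for Foxb1, Sim1 and Otp, except where the gene no longer passed the filter.

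Of the 35 genes, 13 had at least 10 counts in every library, 8 had 10 counts in some libraries only, 9 had counts but never 10, and 5 had none. The genes of the pallium, hypothalamus, thalamus and pretectum made up nearly all of the counts. The subpallial and hindbrain genes were close to 0 everywhere: 8 subpallial genes held 149 counts and 7 hindbrain genes 77 counts over all 10 libraries, against 39468 for 8 pallial genes, 22321 for 8 genes of the eye, hypothalamus and pituitary and 113155 for 4 genes of the thalamus and pretectum. The summed level of the pallial genes was 212 ± 14.0 CPM in wild-type and 217 ± 20.5 CPM in deletion libraries (SD, n = 5). That of the thalamic and pretectal genes was 607 ± 125 and 629 ± 111 CPM, and that of the hindbrain genes 0.264 ± 0.177 and 0.589 ± 0.459 CPM. In each region the group means lay closer together than 1 SD of at least 1 group. A gene with no count in any library is limited to 0.0163 CPM over the 10 libraries together (3 counts, counting error only).

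**Figure D1:**
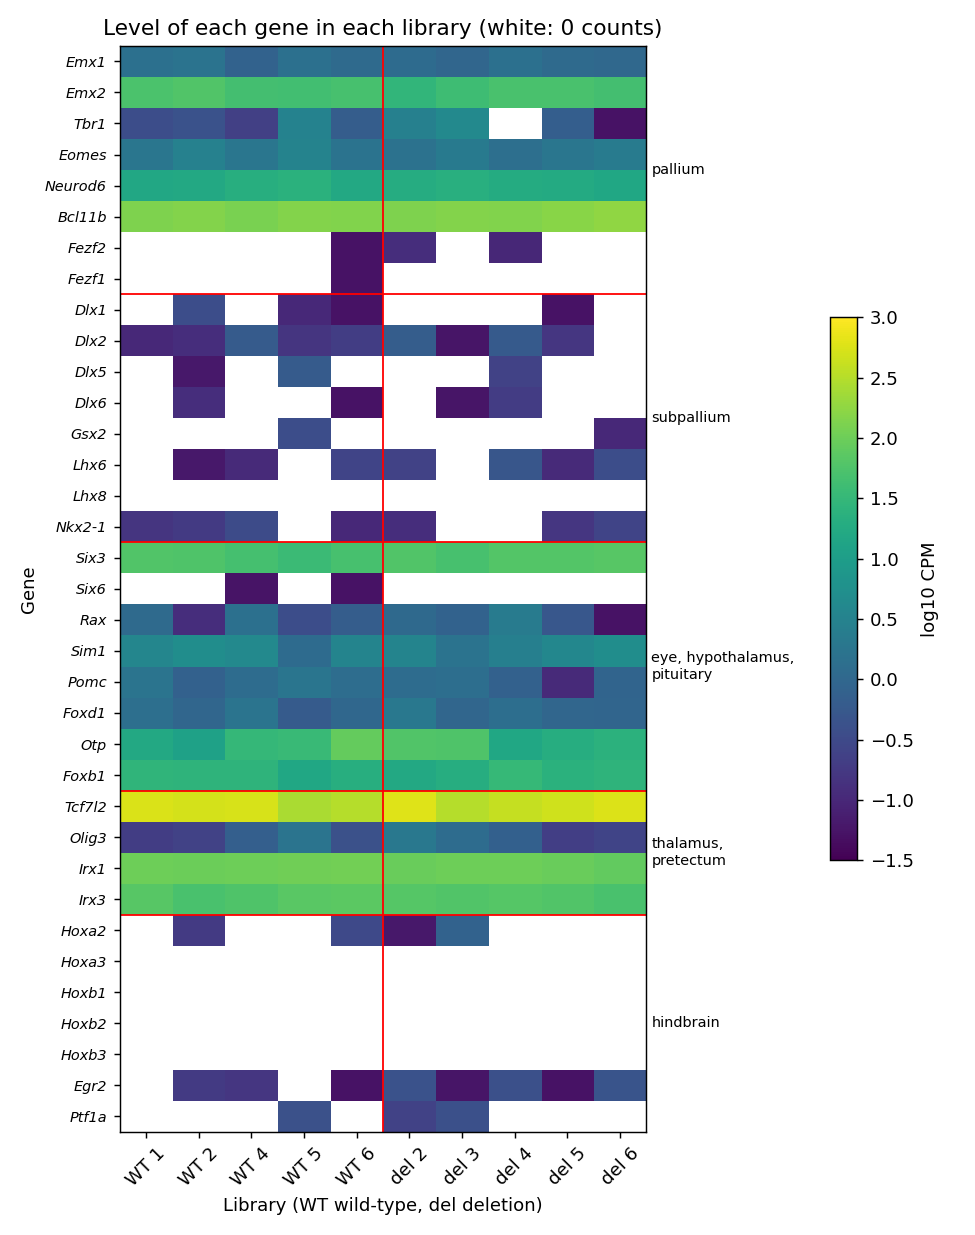
Level of each of the 35 genes (rows, grouped by region) in each library (columns), as log10 CPM; white cells have 0 counts. The pallial, hypothalamic and thalamic blocks hold 17 genes that could be tested, while the subpallial and hindbrain blocks, with 149 and 77 counts, are mostly white or dark.

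Hindbrain genes were at or near 0 in both groups. Hoxa3, Hoxb1, Hoxb2 and Hoxb3, which set the identity of hindbrain segments, had 0 counts in all 10 libraries. Hoxa2, the most anterior Hox gene, had 0, 3, 0, 0 and 6 counts in wild-type 1, 2, 4, 5 and 6 and 1, 15, 0, 0 and 0 counts in deletion 2, 3, 4, 5 and 6. Deletion 3 was thus the only library with 10 Hoxa2 counts. Hoxaas2, a long noncoding RNA on the opposite strand that overlaps Hoxa3, had 11 counts in wild-type 6, 8 in deletion 3, 1 in deletion 6 and none elsewhere. Egr2, which is needed for segments of the hindbrain, had 0 to 9 counts per library, highest in deletion 6. Ptf1a, which sets the GABAergic fate in the cerebellum and dorsal hindbrain, had counts in 3 libraries only: 8 in wild-type 5, 4 in deletion 2 and 7 in deletion 3.

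The subpallial genes were close to 0 as well, and none had 10 counts in every library. Lhx8, of forebrain cholinergic neurons, had none at all. Dlx2, a homeobox gene of GABAergic forebrain progenitors, had 2, 2, 11, 3 and 4 counts in wild-type 1, 2, 4, 5 and 6 and 11, 1, 12, 3 and 0 in deletion 2, 3, 4, 5 and 6. Its partner Dlx5 had 0, 1, 0, 12 and 0 counts in wild-type and 0, 0, 5, 0 and 0 in the deletion libraries in the same order. Dlx2 thus had counts in 9 libraries and Dlx5 in 3, with 12 counts at most and no order by group. Dlx1 and Dlx6 had at most 6 and 4 counts in any library, Nkx2-1, of the ventral forebrain, at most 6, Gsx2, of the lateral ganglionic eminence, at most 7, and Lhx6, of cortical interneurons, at most 10. Dlx1as, a noncoding RNA on the other strand of Dlx1, had 43 to 62 counts in every library. The sources used here do not give whether the counting used strand, so reads that both genes share cannot be assigned to either of them, while Dlx6os1, in the Dlx5 and Dlx6 locus, had 2 counts in all.

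Pallial genes split into a detected and an absent set. Bcl11b, a zinc-finger factor of deep-layer cortical and striatal neurons, was abundant, at 133, 146, 124, 147 and 139 CPM in wild-type 1, 2, 4, 5 and 6 and 133, 144, 143, 159 and 176 CPM in deletion 2, 3, 4, 5 and 6. Emx2, a homeobox gene of the dorsal telencephalon, stood at 53.8, 60.6, 45.4, 44.0 and 48.7 CPM in wild-type and 28.9, 39.5, 50.4, 50.6 and 46.1 CPM in deletion libraries. Bcl11b varied little and its groups overlapped, and Emx2 was lowest in deletion 2 and deletion 3. Emx2os, on the opposite strand of Emx2, had 84 to 140 counts per library. Its close relative Emx1 was far lower, at 1.46, 1.66, 0.829, 1.46 and 1.15 CPM in wild-type and 1.17, 0.950, 1.44, 1.12 and 1.05 CPM in deletion libraries. Neurod6, a bHLH factor of cortical projection neurons, stood at 15.7, 16.6, 20.9, 24.1 and 16.1 CPM in wild-type and 19.5, 22.0, 18.6, 17.7 and 14.9 CPM in deletion libraries, highest in wild-type 5. Eomes, which marks intermediate progenitors of the cortex, stood at 1.87, 3.01, 1.82, 3.29 and 1.62 CPM in wild-type and 1.60, 2.24, 1.39, 1.86 and 2.31 CPM in deletion libraries. Fezf1 and Fezf2, which specify early forebrain and corticospinal neurons, were almost absent, with 1 and 5 counts over all libraries.

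Tbr1, a T-box factor of early-born cortical neurons that is also switched on in neurons of the cerebellar nuclei, was the pallial gene that differed most between libraries. It stood at 0.364, 0.430, 0.221, 3.19 and 0.681 CPM in wild-type 1, 2, 4, 5 and 6 and at 2.83, 4.13, 0, 0.693 and 0.0526 CPM in deletion 2, 3, 4, 5 and 6. Wild-type 5, deletion 2 and deletion 3 were high, deletion 4 had no count, and the groups overlapped fully. The sequences before the starts of Tbr1, Olig3 and Otp are shown as those of an uneven gene each from the pallium, the thalamus and the hypothalamus. Each gives the 250 bases before the annotated start (RefSeq, GRCm38.p6, plus strand). Capitals mark TAATTA, a core bound by many homeodomain proteins, and TATAAA, the sequence of a TATA box. The search covered both strands, with no overlap between the matches. A match counted at any position, so a TATAAA match need not be a working TATA box. The stretches lie at chr2:61804203-61804452 for Tbr1, chr10:19356289-19356538 for Olig3 and chr13:94875386-94875635 for Otp.
Tbr1: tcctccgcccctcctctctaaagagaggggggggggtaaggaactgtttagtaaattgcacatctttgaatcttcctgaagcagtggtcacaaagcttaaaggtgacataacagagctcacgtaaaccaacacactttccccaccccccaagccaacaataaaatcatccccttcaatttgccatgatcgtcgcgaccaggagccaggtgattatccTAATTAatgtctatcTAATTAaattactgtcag
Olig3: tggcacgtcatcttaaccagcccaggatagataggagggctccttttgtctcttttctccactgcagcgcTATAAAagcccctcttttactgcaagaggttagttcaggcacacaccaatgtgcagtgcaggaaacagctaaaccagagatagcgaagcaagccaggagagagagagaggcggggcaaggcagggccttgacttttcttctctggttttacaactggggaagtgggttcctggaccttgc
Otp: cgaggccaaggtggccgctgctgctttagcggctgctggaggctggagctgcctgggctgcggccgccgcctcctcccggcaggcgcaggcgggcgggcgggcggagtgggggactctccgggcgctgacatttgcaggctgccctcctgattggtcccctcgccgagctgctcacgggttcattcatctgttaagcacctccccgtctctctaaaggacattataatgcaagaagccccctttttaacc
The Tbr1 stretch held 2 TAATTA matches and no TATAAA, the Olig3 stretch 1 TATAAA and no TAATTA, and the Otp stretch neither. In windows of 300 bases (250 before to 50 after the start), TAATTA was in 5.29% of 32851 promoters of all genes and in those of 3 of the 28 members with a promoter in the table (Emx2, Pomc and Tbr1). TATAAA was in 13.6% of all promoters and in 7 of the 28 (Bcl11b, Gsx2, Lhx6, Olig3, Pomc, Sim1 and Tcf7l2). The percentages are per promoter and the members are counted per gene, which can have several promoters, so they are not like measures. The members' promoters were rich in CpG, with a median of 15.5 CG pairs in the first listed window against 7 over all genes, and 25 of the 28 had at least the median of all genes.

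In the group of the eye, hypothalamus and pituitary, Six6, a gene of the eye field and pituitary, had 2 counts in all, while Six3, Otp and Foxb1 were well expressed. Six3, a homeobox gene of the anterior forebrain that is also switched on in midbrain GABAergic neurons, stood at 59.6, 58.0, 47.3, 37.4 and 48.9 CPM in wild-type 1, 2, 4, 5 and 6 and 60.6, 48.1, 61.4, 62.9 and 68.0 CPM in deletion 2, 3, 4, 5 and 6. The mean of the wild-type libraries was exceeded in 4 of 5 deletion libraries, but the groups overlapped. Six3os1, a noncoding RNA that overlaps Six3 on the other strand, stood at 66.3, 61.8, 49.5, 56.7 and 55.5 CPM in wild-type and 52.5, 57.8, 69.8, 67.9 and 71.3 CPM in deletion libraries. Foxb1, a forkhead gene of the mammillary region, stood at 27.5, 26.4, 26.5, 15.4 and 20.9 CPM in wild-type and 16.6, 20.4, 32.6, 24.0 and 26.4 CPM in deletion libraries, lowest in wild-type 5 and deletion 2. Sim1, needed for the paraventricular hypothalamus, stood at 3.75, 5.04, 4.14, 1.20 and 3.35 CPM in wild-type and 3.39, 1.62, 2.78, 3.89 and 5.10 CPM in deletion libraries, lowest in wild-type 5 and deletion 3.

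Otp, a homeobox gene of hypothalamic neuroendocrine cells, varied most among the well-expressed genes. It stood at 16.3, 11.9, 31.6, 35.1 and 88.1 CPM in wild-type 1, 2, 4, 5 and 6 and 59.9, 57.3, 15.3, 20.0 and 24.9 CPM in deletion 2, 3, 4, 5 and 6. Wild-type 6 was the highest library, followed by deletion 2 and deletion 3, and the highest was 7.42 times the lowest. The remaining genes of this group were near 1 CPM. Pomc, the hormone precursor of the arcuate nucleus and pituitary, stood at 1.72, 0.799, 1.22, 1.78 and 1.26 CPM in wild-type and 1.23, 1.34, 0.794, 0.107 and 0.893 CPM in deletion libraries, and no deletion library lay above the wild-type mean. Deletion 5, with 2 counts, was far below the others. Foxd1, a forkhead gene of the hypothalamus and retina, stood at 1.41, 0.984, 1.71, 0.627 and 0.996 CPM in wild-type and 1.97, 0.950, 1.34, 0.959 and 0.946 CPM in deletion libraries. Rax, of the eye field and ventral hypothalamus, ran from 2 to 26 counts in wild-type and from 1 to 48 counts in the deletion libraries. Of 8 pituitary markers, Tbx19, Gh and Prl had 0 counts and Cga 1 count, while Pitx1 stood at 6.22 ± 1.52 CPM in wild-type and 6.41 ± 1.46 CPM in deletion libraries (SD, n = 5).

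Among the genes of the thalamus and pretectum, Tcf7l2, the nuclear effector of Wnt signalling in the thalamus, habenula and pretectum, had the highest level per length of all 35. It stood at 563, 508, 536, 274 and 311 CPM in wild-type 1, 2, 4, 5 and 6 and 599, 312, 407, 480.3 and 569 CPM in deletion 2, 3, 4, 5 and 6. Wild-type 5, wild-type 6 and deletion 3 were the lowest libraries and deletion 2 the highest. The homeobox genes Irx1 and Irx3, which pattern the neural tube behind the thalamic boundary, were even across libraries. Irx1 stood at 101, 96.2, 102, 106 and 111 CPM in wild-type and 94.8, 102, 102, 93.2 and 82.8 CPM in deletion libraries, all of the latter below the wild-type mean. Irx3 stood at 68.6, 51.0, 57.9, 69.7 and 75.0 CPM in wild-type and 64.0, 59.6, 65.8, 59.1 and 51.6 CPM in deletion libraries. Olig3, a bHLH gene of thalamic and rhombic lip progenitors, was low, at 0.208, 0.246, 0.718, 1.67 and 0.419 CPM in wild-type and 1.97, 1.23, 0.744, 0.213 and 0.263 CPM in deletion libraries. As for Tbr1, wild-type 5, deletion 2 and deletion 3 were the highest.

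Levels were compared between genes per kilobase of the longest GENCODE M21 transcript, over the 5 wild-type libraries. Tcf7l2 led with 118 ± 36.4 CPM per kb (SD, n = 5), followed by Irx1 with 43.5 ± 2.39 and Irx3 with 23.5 ± 3.54 CPM per kb. The ranges of these neighbours did not overlap between Tcf7l2 and Irx1 or between Irx1 and Irx3. Emx2 (17.3 ± 2.33 CPM per kb), Bcl11b (17.0 ± 1.16), Otp (13.8 ± 11.4), Six3 (13.7 ± 2.44), Neurod6 (8.69 ± 1.71) and Foxb1 (7.82 ± 1.72) came next, and each overlapped its neighbours in this order, Emx2 with Irx3 included. A gap followed: the lowest Foxb1 library (5.17 CPM per kb) lay above the highest Pomc library (1.70 CPM per kb). Below it, Pomc, Emx1, Eomes, Sim1, Olig3, Rax, Tbr1 and Foxd1 had means from 1.30 down to 0.226 CPM per kb, with overlapping ranges between all neighbours.

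**Figure D2:**
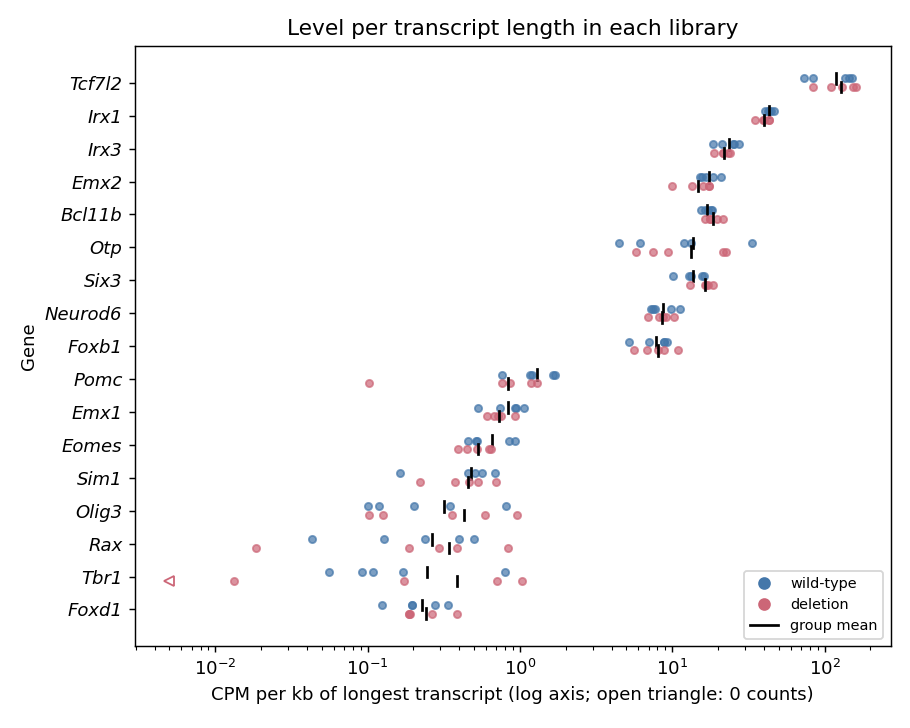
CPM per kilobase of the longest transcript (log axis) of the 17 tested genes in each wild-type (blue) and deletion (red) library, with black ticks for group means and an open triangle for 0 counts. Tcf7l2 is highest in both groups, a gap separates Foxb1 from Pomc in the wild-type libraries, and Otp, Olig3, Rax and Tbr1 are spread widest.

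The spread between libraries of 1 group set the members apart into even and uneven genes. Over all 15288 genes tested, the median within-group SD of log2 CPM was 0.17, and over the 17 tested members it was 0.38. Tbr1 had an SD of 1.92, Rax one of 1.30, Olig3 one of 1.09, Otp one of 1.01 and Pomc one of 0.85, each above that of at least 98.1% of tested genes. Tbr1, Rax, Olig3 and Pomc rest on few counts, which widens the SD, while Otp had 193 to 1680 counts per library. Irx1 (0.10) and Bcl11b (0.13) lay below the median of all genes.

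The uneven genes did not share 1 order of libraries. Tbr1, Olig3 and Ptf1a were highest in wild-type 5, deletion 2 and deletion 3. The listed cerebellar gene Skor2, of Purkinje cells, stood at 2.03, 3.32, 1.60, 19.7 and 5.45 CPM in wild-type 1, 2, 4, 5 and 6 and 13.6, 18.9, 2.68, 2.88 and 2.79 CPM in deletion 2, 3, 4, 5 and 6. Fgf3, a growth factor gene of the hindbrain, stood at 1.20, 0.369, 0.995, 15.7 and 0.944 CPM in wild-type and 10.8, 14.9, 1.54, 1.81 and 0.893 CPM in deletion libraries. Both were thus high in the same libraries as Tbr1. Atoh1, of the rhombic lip, had 32, 33 and 27 counts in wild-type 5, deletion 2 and deletion 3 and at most 9 in any other library. It is below 1 CPM on average and was named after its values were seen. Of the 7 listed cerebellar markers, Ptf1a among them, 3 of the 5 tested (Skor2, Pax2 and Cbln1) had these 3 libraries as the highest, and the summed level of the list ran from 239.7 to 278 CPM in wild-type and from 225 to 281 CPM in deletion libraries, with none of its 7 genes at 0 in all libraries. In wild-type 5, deletion 2 and deletion 3 the cerebellar sum was 270, 231 and 266 CPM. The summed level of the other hindbrain and spinal genes was 268, 275 and 262 CPM in these 3 libraries. It ran from 166 to 221 CPM in the remaining libraries. The lists overlap: Skor2 and Pax2 also count among the 5 of 10 tested hindbrain and spinal genes, and Atoh1 is on both lists. Barhl1, also on the cerebellar list, is a midbrain identity gene on another list, so the cerebellar sum is not of cerebellar genes alone. The part of the cerebellar markers in the levels of Tbr1 and Olig3 was not tested. Otp was highest in wild-type 6 instead, and Tcf7l2 was low in wild-type 5, wild-type 6 and deletion 3 but highest in deletion 2.

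**Figure D3:**
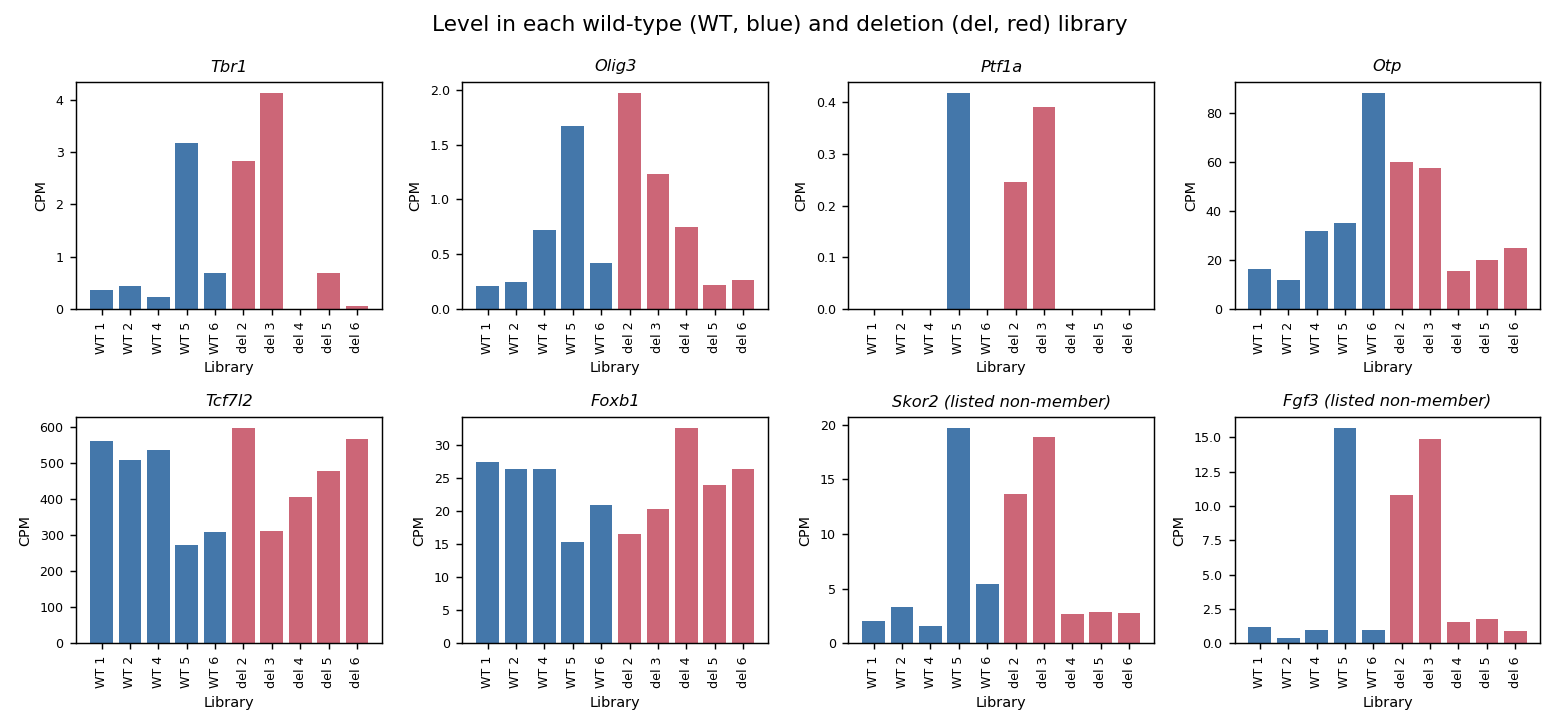
CPM in each of the 10 libraries (bars, blue wild-type and red deletion) for 6 of the 35 genes and for Skor2 and Fgf3. Tbr1, Olig3, Ptf1a, Skor2 and Fgf3 are highest in wild-type 5, deletion 2 and deletion 3, while Otp peaks in wild-type 6 at 88.1 CPM.

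The design asks whether any of these genes differed without HAR.321. None did so past the test: of the 17 members that passed the filter on low counts, 0 passed edgeR's quasi-likelihood test at a Benjamini-Hochberg adjusted p of 0.05, where 9 of 15288 genes (0.0589%) passed, all lower in the deletion group. Single libraries moved that count of 9: it became 357 without deletion 4, 88 without wild-type 2, 3 without deletion 3 or deletion 6, 1 without wild-type 4 and 0 without any of the 5 others. Of the members, 8 were higher and 9 lower, and their log2 fold changes had a median of -0.01, against -0.002 over all genes tested. At an unadjusted p under 0.05 there was 1 of 17 members, against 10.5% of all genes, and the groups overlapped for all 17, where 2.49% of tested genes had groups that did not. DESeq2 called 0 of the 9 members that it gave an adjusted p (2.38% of all genes called), and limma-voom called 0 of 17 (0.0% of all genes called). Each had 1 member at an unadjusted p under 0.05, against 7.9% of all genes in DESeq2 and 10.8% in limma-voom. Without the filter, 13 more members could be fitted and none passed (0.301% of all genes called, lowest adjusted p among the 13 = 0.560). These genes had 0 to 15 counts per library, and how large a difference could be seen in them was not tested.

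Six3 was the member with the smallest p, at 50.2 ± 8.98 CPM in wild-type and 60.2 ± 7.35 CPM in deletion libraries (SD, n = 5). The log2 fold change was 0.26 (SE 0.11, from 0.03 to 0.50 at 95%) and missed the threshold (edgeR, unadjusted p = 0.0313, adjusted p = 0.411). Reads that Six3 shares with Six3os1 could count for either of them. Bcl11b stood at a log2 fold change of 0.13 (SE 0.07; 95% limits -0.02 to 0.28, adjusted p = 0.571 in edgeR), with 4 of 5 deletion libraries over the mean of the others. Irx1 had one of -0.12 (SE 0.07, limits -0.26 to 0.02, adjusted p = 0.576) and Irx3 one of -0.10 (SE 0.09, limits -0.30 to 0.09, adjusted p = 0.763). Without wild-type 5, deletion 2 and deletion 3 the log2 fold changes were 0.26 (SE 0.11) for Six3, 0.23 (SE 0.09, limits 0.03 to 0.42, adjusted p = 0.781 in edgeR) for Bcl11b, -0.15 (SE 0.09) for Irx1 and -0.11 (SE 0.12) for Irx3. Single libraries moved these values too. Six3 was 0.17 without wild-type 5, Bcl11b 0.07 and Irx1 -0.07 without deletion 6, and Irx3 -0.18 without wild-type 2, -0.05 without wild-type 6 and -0.05 without deletion 6. Emx2 stood at a log2 fold change of -0.23 (SE 0.13; 95% limits -0.51 to 0.05, adjusted p = 0.600 in edgeR), -0.12 without deletion 2, and -0.09 (SE 0.11) without wild-type 5, deletion 2 and deletion 3. Pomc had one of -0.64 (SE 0.43, limits -1.53 to 0.24, adjusted p = 0.647) and -1.06 (SE 0.55) without those 3 libraries, but -0.36 without deletion 5, its lowest library.

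Of the remaining tested members, Tbr1, Otp, Rax and Olig3 had the widest intervals. Eomes stood at a log2 fold change of -0.30 (SE 0.28; 95% limits -0.88 to 0.27, adjusted p = 0.767 in edgeR), -0.14 without wild-type 5, and -0.17 (SE 0.35) without wild-type 5, deletion 2 and deletion 3. Tcf7l2 stood at a log2 fold change of 0.11 (SE 0.26; 95% limits -0.50 to 0.72, adjusted p = 0.935), and it ran from -0.02 without wild-type 5 to 0.23 without deletion 3 over the left-out libraries. Without wild-type 5, deletion 2 and deletion 3 it was 0.01 (SE 0.17). Olig3 had one of 0.40 (SE 0.61, limits -0.87 to 1.67, adjusted p = 0.879), which was -0.11 without deletion 2 and 1.11 without wild-type 5. Without all 3 libraries Olig3 and Tbr1 no longer passed the filter. The other 8 tested members had log2 fold changes from -0.19 for Emx1 (SE 0.32) to 0.62 for Tbr1 (SE 1.16), with adjusted p from 0.889 to 0.989 in edgeR. The sign of several of them rested on single libraries. Tbr1 was -0.19 without deletion 3 and 1.82 without wild-type 5, and -0.66 in limma-voom. Rax was -0.27 without deletion 4. Otp, at -0.05 (SE 0.64), was 0.57 without wild-type 6 and 0.14 without deletion 4, and -0.89 (SE 0.80) without wild-type 5, deletion 2 and deletion 3. Without those 3 libraries Foxb1 was 0.12 (SE 0.13) in place of 0.05 (SE 0.18), and Sim1 -0.06 (SE 0.26) in place of -0.05 (SE 0.32). Leaving out 1 library also turned the sign of Foxb1, Sim1, Foxd1 and Neurod6, whose log2 fold changes lay between -0.28 and 0.29 in those fits. In the fit without the 3 libraries 0 of 15 tested members passed, with 2 (Six3 and Bcl11b) at an unadjusted p under 0.05 against 6.08% of all genes.

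**Figure D4:**
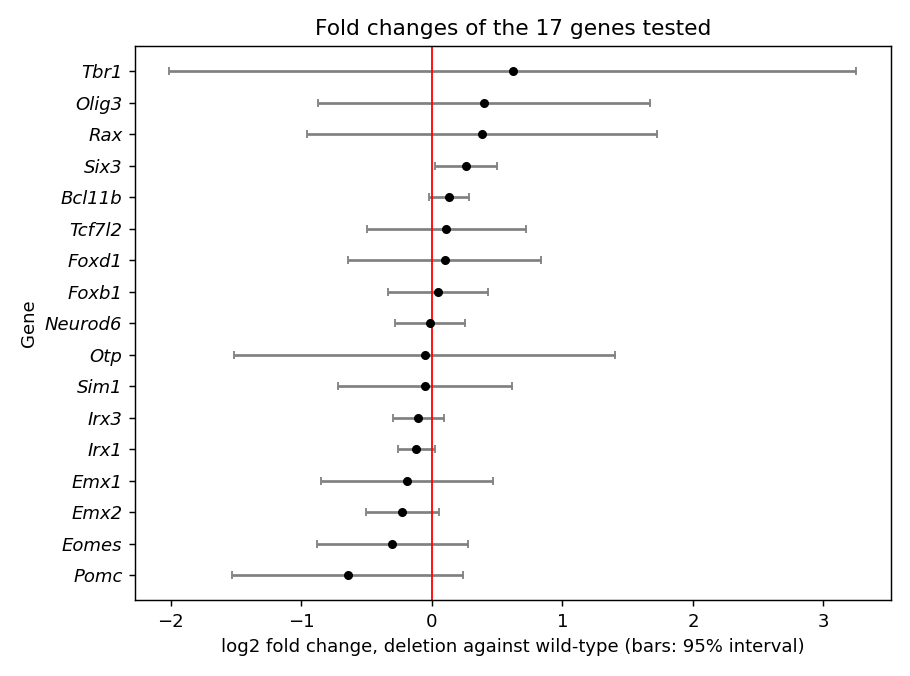
Log2 fold change of the 17 tested genes, deletion against wild-type, with 95% intervals from edgeR's quasi-likelihood fit. The interval of Six3, 0.03 to 0.50, is the only one that leaves out 0 before adjustment, and that of Tbr1 is the widest.

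None of the tested genes on 3 lists outside the 35 passed edgeR's test either, where 9 of 15288 genes (0.0589%) passed. With so small a share, a count of 0 in a short list says little. At an unadjusted p under 0.05 the share over all genes tested was 10.5% in edgeR. Of 30 other forebrain genes, 24 were tested, 13 were higher and 11 lower, and none passed edgeR's test (0 at an unadjusted p under 0.05; median log2 fold change 0.02). Several are known to be switched on in the midbrain too: Lhx9 stood at 392 ± 30.7 CPM in wild-type and 380.4 ± 57.0 CPM in deletion libraries (SD, n = 5). Of 30 other hindbrain and spinal genes, 10 were tested, 7 were higher and 3 lower, and none passed (0 at an unadjusted p under 0.05; median 0.23). In that list Hoxa4, Hoxa5, Hoxb6, Hoxb7, Hoxc4, Hoxc5, Hoxc6, Hoxc8, Hoxd3, Hoxd4 and Hoxd8 had 0 counts in all libraries. Of the 22 midbrain identity genes, 12 were higher and 10 lower, none passed, and the median was 0.001 (0 at an unadjusted p under 0.05).

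Markers of the eye, the choroid plexus and the meninges were at low levels. The summed level of 7 retinal markers ran from 11.0 to 19.1 CPM in wild-type and from 11.4 to 20.5 CPM in deletion libraries. That of 6 choroid plexus markers ran from 4.23 to 5.78 CPM and from 4.02 to 6.99 CPM, and Ttr, its most abundant transcript in the mature plexus, had at most 4 counts in any library. That of 6 meningeal markers ran from 18.6 to 28.8 CPM and from 18.1 to 25.7 CPM. Of the tested genes of these 3 lists, none passed edgeR's test, and 1 meningeal gene, Dcn, had an unadjusted p under 0.05 (log2 fold change 1.40, 32 counts in wild-type and 88 in the deletion libraries).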

How the data were processed

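Total RNA of embryonic day 14.5 midbrain was sequenced from 5 wild-type and 5 deletion libraries. The authors deposited raw counts per Entrez gene ID, made with HISAT2 and featureCounts on mm39 per the submitters' processing notes. The sources used here do not give versions, annotation, strandedness or the treatment of multi-mapping reads. Symbols were matched for 30648 of 30935 IDs. Library totals were 16246892 to 20255728 counts, and every column had a sample.

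Counts were tested in R 4.3.3 with edgeR 4.0.16 (filterByExpr, TMM scaling, robust quasi-likelihood test, Benjamini-Hochberg threshold 0.05 over all genes tested). CPM are TMM-scaled. Log2 CPM used a prior count of 2, SE is the log2 fold change divided by the root of F, and intervals are 95%. DESeq2 1.42.0 and limma 3.58.1 (voom) were alternatives, beside other scalings, filters, trends and left-out libraries. The procedure was tested on simulated data. Transcript lengths came from GENCODE M21 and promoters from RefSeq (GRCm38.p6), neither of the mm39 build. No pair of libraries agreed within sampling noise (lowest chi-square per degree of freedom 5.63).

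The members and lists were chosen with earlier results of these data known. Values in every library are given for members with a mean of at least 1 CPM in either group, or with a highest library of at least 10 counts and 3 times its group's median. Full statistics are given for the 8 smallest p and the 3 highest levels per length (9 members). Listed genes outside the 35 are named at a mean of 1 CPM, at most 6 per list, or where a count of the list needs its members' names, which were then chosen after their values were seen.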

Additional observations from a re-analysis of the deposited data

Results flagged for a closer look

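Over 52 checks in groups of 5 libraries (the members with at least 10 counts in any library and the summed level of each region), 5 had a library far from the other 4, by the gap between the highest or lowest library and its neighbour relative to the whole range (above 0.71). Chance gives this in about 1 of 20 groups of normally distributed values. That rate need not hold for CPM that were not logged, Tbr1 included, or for counts near 0, as in all but Tbr1 here. Tbr1 stood at 3.19 CPM in wild-type 5, above the other wild-type libraries. Dlx2 stood at 0.608 CPM in wild-type 4 (11 counts). Dlx5 stood at 0.627 CPM in wild-type 5 (12 counts), and in the deletion group at 0.248 CPM in deletion 4 (5 counts), where the other 4 had none. Hoxa2 stood at 0.838 CPM in deletion 3 (15 counts). The counts of all but Tbr1, with 61 in wild-type 5, were 15 or fewer.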

How the results depend on the processing

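No member passed under any of the 11 alternative settings or the 10 fits that each left out 1 library; the lowest adjusted p was 0.241, for Six3 without wild-type 2 (edgeR). The count of all genes called, 9, was less stable. It was 15 with upper-quartile factors, 69 without a filter, 18 after removing a trend on GC content and length, 238 in DESeq2, and 0 in limma-voom, with a trend on length removed, and without wild-type 5, deletion 2 and deletion 3 (chosen after seeing the data). Leaving out 1 library gave 0 to 357. Libraries with the same replicate number did not deviate together (correlations of deviations -0.08, -0.13, -0.06 and 0.12 for numbers 2, 4, 5 and 6). Pairs with different numbers ran from -0.28 to 0.29. These correlations cannot tell whether the numbers mark a shared litter or dissection day. With the replicate block 0 genes were called, and again with the block and that trend removed. The log2 fold change of Olig3 was -0.12 with the replicate block, -0.0919 with the replicate block and that trend removed, and -0.11 without deletion 2 (range over left-out libraries -0.11 to 1.11). That of Tcf7l2 was -0.0215 without wild-type 5 (range -0.0215 to 0.23). Tbr1 was -0.93 with the replicate block and -0.95 with the block and that trend removed, and Sim1 0.23 and 0.24. Six3 was 0.41 (SE 0.11, edgeR unadjusted p = 0.00269, adjusted p = 0.646) with the block. With the block and that trend removed Six3 was 0.37 (SE 0.096, edgeR unadjusted p = 0.00157, adjusted p = 0.311). Tcf7l2 was 0.38 (SE 0.19) and 0.37 (SE 0.28) in these fits. Emx1 was 0.04 with the block and that trend removed, and Neurod6 was 0.04 after removing a trend on length and 0.11 with GC content added. In limma-voom Otp was 0.03 and Sim1 0.01, and without the 3 libraries Foxd1 was -0.24. The members' median log2 fold change ran from -0.112 to 0.0462 over the left-out libraries. The cause of these changes was not tested. The 18 untested members had 0 to 15 counts per library.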
